A study of Mus musculus with 6 samples.

Results

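The genes described here handle thyroid hormone inside the brain: Dio2 encodes the deiodinase that activates the hormone, Slco1c1 a transporter, Crym a cytosolic binding protein, and Thra and Thrb the nuclear receptors. They were taken by symbol, and all 5 were found among the 16411 genes listed. Whole hypothalami were dissociated and single cells sequenced with 10x Genomics Chromium chemistry (3' v2). The donors were male ob/ob mice, which lack leptin, aged 11 weeks, and each had been given the fibroblast growth factor 1 variant FGF1 R50E (3 µg) into a cerebral ventricle 5 days before it was killed. All labelled samples carry this strain and this treatment, so no treatment effect was estimated, and the levels below are those of treated, leptin-deficient mice. Of the 6 labelled mice, 4 (numbers 3, 4, 30 and 34) had cells in the table, each mouse being 1 replicate, and these gave 20151 cells in 9 cell types named by the authors.

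Thyroxine (T4), the main hormone that the thyroid gland secretes, is a precursor that becomes active when deiodinase 2 removes an iodine atom and turns it into triiodothyronine (T3). Neither form crosses membranes freely, so transporters in the endothelium and in glial cells bring it in, and in the nucleus the receptors, paired with retinoid X receptors, switch target genes with the help of corepressors and coactivators. Tanycytes are elongated ependymoglial cells of the floor and lower walls of the third ventricle, and they are a known site of deiodinase 2 activity in the hypothalamus, together with astrocytes. The comparison therefore asked where each step of this pathway was detected, and how tanycytes stood against the other cell types.

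In the RefSeq annotation of GRCm38.p6, Dio2 lies on chromosome 12 (90724552 to 90739038), Slco1c1 on chromosome 6 (141524354 to 141570177), Crym on chromosome 7 (120186380 to 120201989), Thra on chromosome 11 (98740776 to 98769006) and Thrb on chromosome 14 (17659225 to 18040097). A promoter sequence was at hand for Dio2, Slco1c1 and Thrb. The 250 bases before the annotated start are shown for Dio2, whose highest level was in tanycytes, and for Slco1c1, whose highest level was in endothelial cells. Capitals mark a match to the cAMP response element TGACGTCA, which reads the same on both strands. The first sequence is on the minus strand at chr12:90739039-90739288, the second on the plus strand at chr6:141524104-141524353.
Dio2: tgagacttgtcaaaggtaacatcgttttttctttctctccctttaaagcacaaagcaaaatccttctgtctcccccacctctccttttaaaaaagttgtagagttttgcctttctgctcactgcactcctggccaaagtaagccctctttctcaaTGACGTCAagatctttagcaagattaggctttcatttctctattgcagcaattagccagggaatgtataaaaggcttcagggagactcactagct
Slco1c1: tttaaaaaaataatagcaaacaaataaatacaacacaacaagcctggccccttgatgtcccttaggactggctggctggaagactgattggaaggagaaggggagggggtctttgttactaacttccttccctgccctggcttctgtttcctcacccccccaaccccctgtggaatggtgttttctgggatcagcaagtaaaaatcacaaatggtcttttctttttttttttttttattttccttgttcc
The Dio2 promoter held 1 match, which began 95 bases before the start. The same letters occur in 508 of the 32851 promoter windows of this length (1.55%). The half-site AGGTCA, which thyroid hormone receptors and many other nuclear receptors can bind, was searched on both strands. It shares its last letters, GTCA, with the first motif. The half-site matched neither sequence shown but matched 1 of the Thrb promoter windows, 184 bases before its start, and it is present in 14.0% of all windows. A match is a string of letters and was not tested as a binding site.

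The 4 libraries held between 3005 and 7386 cells, with medians of 909 to 1066 UMIs (unique molecular identifiers, that is, counted molecules) per cell. For each mouse and cell type the UMIs of a gene were summed and given as CPM, counts scaled to the same total, which compares a gene between cell types but not 1 gene with another. The sums held 881597 to 2034432 UMIs in tanycytes but only 44756 to 133441 in microglia, where a count of 0 over all 4 mice still allows 7.58 CPM (3 counts). Vascular leptomeningeal cells, 68 in all, reached 20 cells in 1 mouse only and were not compared. The summed markers of each type were highest in the type of that name, although 1 of the 5 tanycyte markers, Scn7a, was higher in ependymal cells (90.1 CPM ± 22.8) than in tanycytes (29.9 ± 24.9; SD, n = 4). The summed tanycyte markers stood at 1465 to 1844 CPM in the 4 tanycyte sums and at no more than 218 CPM elsewhere. Among 19954 distinct cell barcodes, 194 occurred in more than 1 library.

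By the mean over mice, Dio2 was highest in tanycytes, followed by oligodendrocyte precursor cells (OPC, 13.2 CPM) and astrocytes (12.8 CPM). With counts pooled over mice, astrocytes stood above OPC, at 49.0% and 42.6% of the tanycyte level. Its level in tanycytes was 17.2, 21.6, 37.9 and 30.8 CPM in mice 3, 4, 30 and 34, a mean of 26.9 CPM ± 9.30 (SD, n = 4) that rests on 145 UMIs. Astrocytes, the other known site, held 14.1, 10.3, 16.01 and 11.0 CPM (12.8 ± 2.68; 69 UMIs), so that every tanycyte value lay above every astrocyte value. OPC read 6.6, 24.6, 17.0 and 4.6 CPM from only 15 UMIs, and their range overlapped that of tanycytes. In ependymal cells, which line the same ventricle and carry motile cilia, Dio2 was listed at 6.5, 0, 0 and 3.6 CPM from 7 UMIs in 4 mice. Endothelial cells gave 4 UMIs, committed oligodendrocyte precursors (COP) 6, oligodendrocytes 19 and microglia 2. Vascular leptomeningeal cells gave 0 UMIs, which allows 24.1 CPM (3 counts over the pooled cells), close to the tanycyte level itself.

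**Figure D1:**
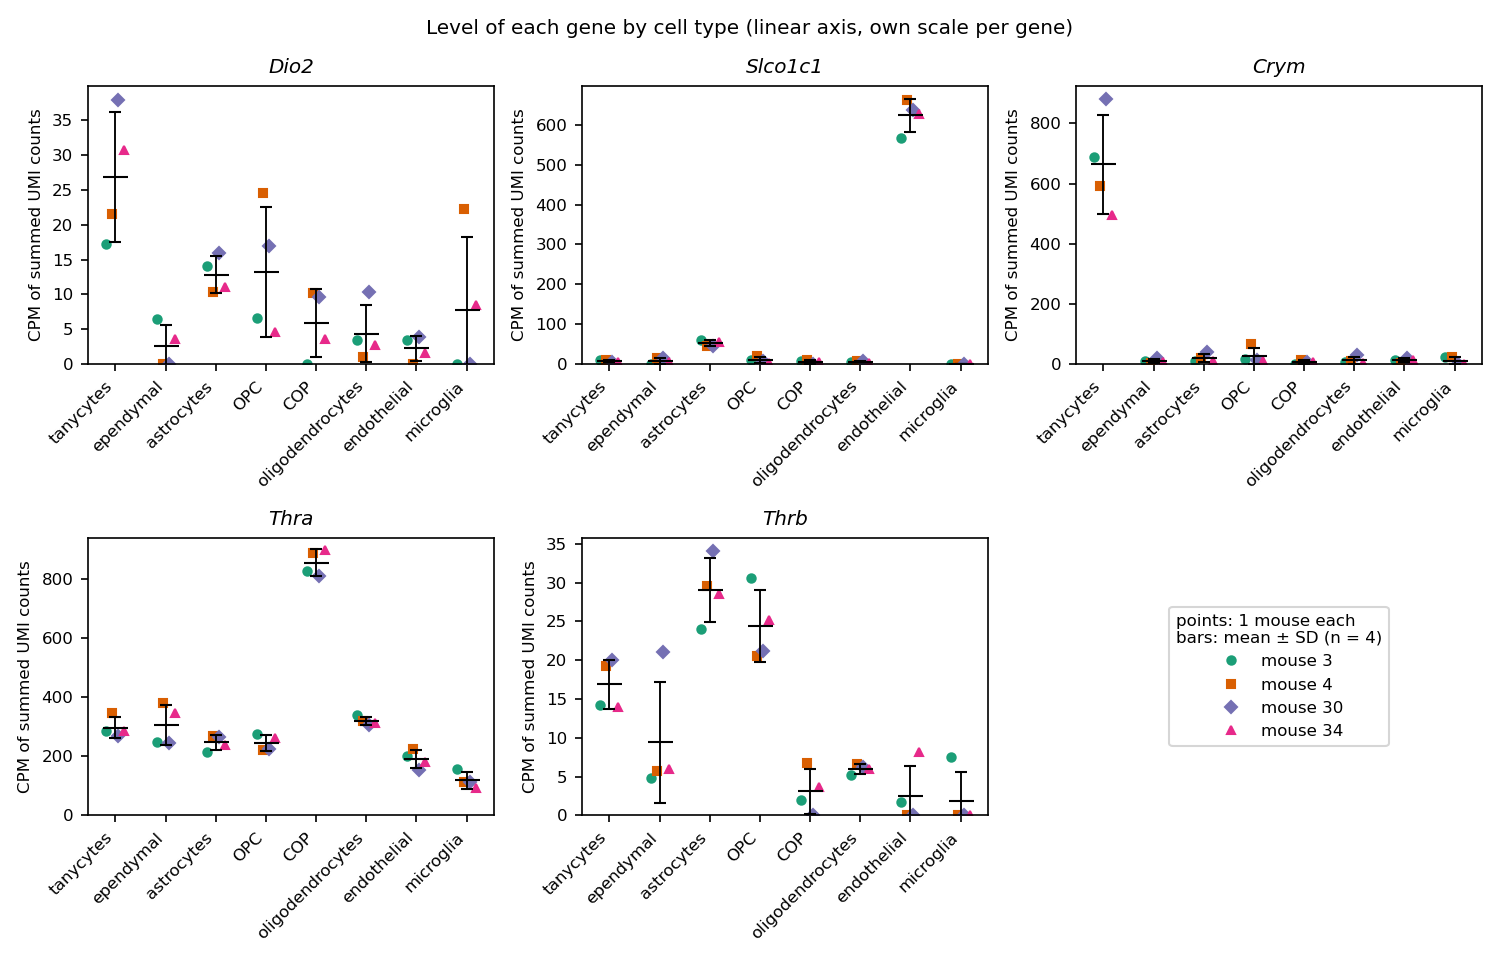
Level of Dio2, Slco1c1, Crym, Thra and Thrb in 8 cell types, in CPM of summed UMI counts on linear axes with a separate scale for each gene. Points are single mice and bars show the mean and SD over 4 mice. Dio2 and Crym peak in tanycytes (means of 26.9 and 664 CPM), Slco1c1 in endothelial cells (624 CPM), Thra in COP (855 CPM) and Thrb in astrocytes (29.0 CPM).

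Differences between cell types were tested within mice with the edgeR quasi-likelihood F test with mouse as a block, and p-values were adjusted by Benjamini and Hochberg over all genes tested in each contrast. A call required an adjusted p under 0.05 together with a log2 difference past 1 in either direction. The cell types are the authors' labels of these same cells, so the calls describe these types and are no independent evidence for them. The fold changes come from the edgeR fit with TMM scaling and can stand well apart from the ratio of the mean CPM values. For tanycytes over OPC, Dio2 had a ratio of 2.04 beside a log2 fold change of 1.49. For tanycytes over oligodendrocytes, Thra had a ratio of 0.93 beside a log2 fold change of -0.34. Against ependymal cells, 4 of the 5 genes passed the filter on low counts and 2 were called, Dio2 and Crym, both higher in tanycytes, where 19.8% of all genes tested were called. Against astrocytes, all 5 were tested and 2 were called, Crym higher and Slco1c1 lower (21.1% of all genes). Against OPC, 4 were tested and Dio2 and Crym were called higher (26.0% of all genes). Against COP, 3 were tested and all were called, Dio2 and Crym higher and Thra lower (36.8% of all genes). Against oligodendrocytes, 4 were tested and 3 were called higher, Dio2, Crym and Thrb (33.1% of all genes). Against endothelial cells, 5 were tested and 4 were called, of which Slco1c1 alone was lower in tanycytes (32.3% of all genes). Against microglia, 3 were tested and Dio2, Crym and Thra were called higher (32.5% of all genes). Of the 5 genes, Thra alone passed the filter in every pair of types. Dio2 and Crym passed it against most types through tanycytes, Slco1c1 through endothelial cells or astrocytes, and Thrb through tanycytes or astrocytes, so that the filter could fix the direction of a call, and the counts of calls for these genes are a description only. Without the filter, the 28 values tested here kept their direction and their side of the threshold. These are pairs that had already passed the filter, so this cannot show whether the filter fixed a direction.

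**Figure D2:**
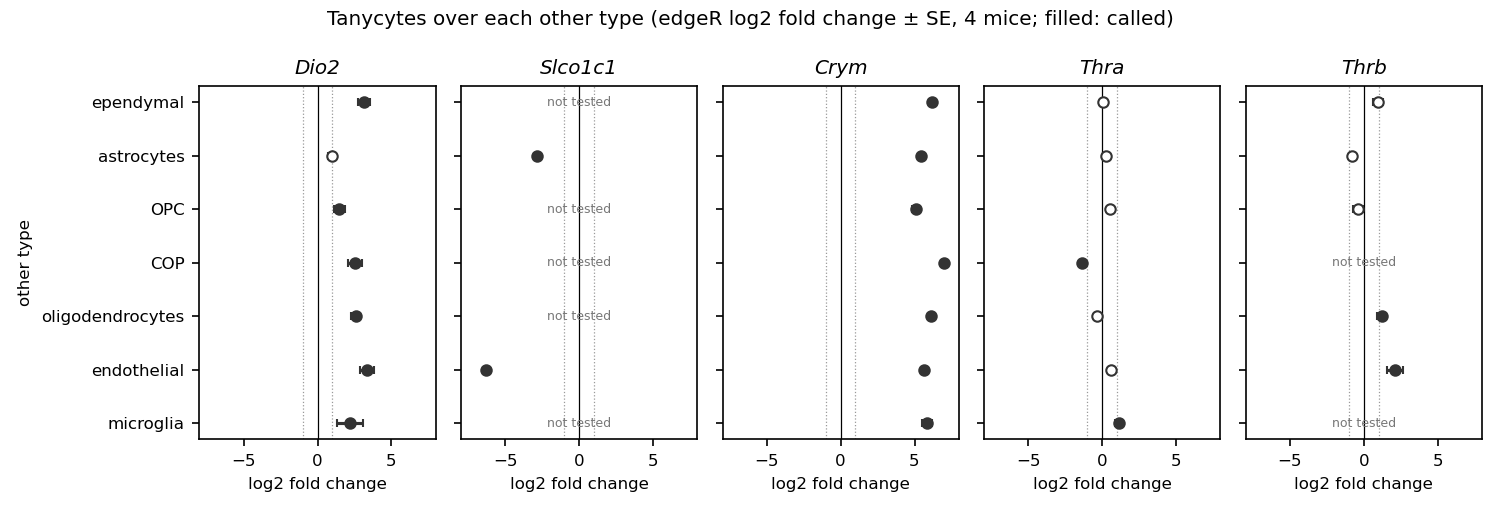
Log2 fold change of each gene, tanycytes over each other type, with its SE from edgeR over 4 mice. Filled points were called, open points were not, the dotted lines mark log2 fold changes of -1 and 1, and "not tested" marks genes under the filter on low counts. Crym lies between 5.08 and 7.01 in all 7 contrasts, whereas Thra lies between -1.37 and 1.12.

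For Dio2 the difference from astrocytes was 0.95 ± 0.23 on the log2 scale (SE, edgeR adjusted p = 0.00023). This is a rise by the adjusted p alone, which 51.8% of all genes passed, but it fell just short of the fold limit. Tanycytes were higher than astrocytes in 4 of 4 mice, and leaving out 1 mouse gave log2 differences from 0.66 without mouse 34 (edgeR adjusted p = 0.058) to 1.30 without mouse 3. Without the mouse block the difference was 1.03 and passed the call. By the edgeR fit the differences from the other types were larger: 1.49 ± 0.37 from OPC, 2.51 ± 0.48 from COP, 2.59 ± 0.31 from oligodendrocytes, 3.16 ± 0.42 from ependymal cells and 3.36 ± 0.50 from endothelial cells. By mean CPM, however, the ratio of tanycytes was 2.04 over OPC and 2.09 over astrocytes, and tanycytes exceeded OPC in 3 of 4 mice. With 1 mouse left out, the log2 difference from OPC ran from 1.02 to 1.99, with an edgeR adjusted p of up to 0.0455. From microglia the difference was 2.20 ± 0.87 (edgeR adjusted p = 0.037), a call that rests on 2 microglial UMIs and was lost under several alternatives, among them leaving out mouse 3, 30 or 34. Against every type but astrocytes, Dio2 passed the filter through tanycytes, where it is higher. The filter could thus fix these directions, and the calls are a description only. Among the fitted pairs of remaining types 1 passed the filter on low counts for Dio2: astrocytes exceeded oligodendrocytes by 1.71 ± 0.37 (edgeR adjusted p = 6.4e-05, where 60.4% of all genes passed by the adjusted p alone). The other places in the order were not tested.

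Few cells carried a Dio2 UMI, 131 of 4490 tanycytes (2.95% ± 0.81 per mouse; SD, n = 4), and 118 of them held a single UMI. The share was 1.16% ± 0.17 in astrocytes and lowest among the compared types in endothelial cells, at 0.28% ± 0.21, with median depths of 1143, 851 and 1064 UMIs per cell in tanycytes, astrocytes and endothelial cells. After each cell was thinned to 500 UMIs the shares were 1.14% ± 0.18 in tanycytes and 0.73% ± 0.12 in astrocytes. At this depth the share says little about single tanycytes, because most would show no UMI at the level measured.

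Slco1c1 encodes a transporter with a preference for T4 that is known from the blood-brain barrier. Its level was 567, 663, 638 and 628 CPM in the endothelial cells of mice 3, 4, 30 and 34 (624 CPM ± 40.7; SD, n = 4). Astrocytes followed at 60.3, 44.97, 46.0 and 56.0 CPM (51.8 ± 7.52). Both sets of values stood above those of all other types, and they did not overlap each other. The log2 difference, astrocytes over endothelial cells, was -3.46 ± 0.12 (edgeR adjusted p = 1.2e-42, where 60.6% of all genes passed by the adjusted p alone). Astrocytes exceeded OPC by 2.78 ± 0.32, a pair in which 48.0% of all genes passed and Slco1c1 entered through astrocytes.

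In tanycytes Slco1c1 was found at 10.8, 9.1, 5.3 and 4.5 CPM (7.41 ± 3.03, 43 UMIs), inside the span of the OPC, ependymal cells, COP and oligodendrocytes, whose means ran from 5.31 to 10.6 CPM. Tanycytes lay below endothelial cells by a log2 difference of -6.34 ± 0.16 and below astrocytes by -2.84 ± 0.21, in 4 of 4 mice each. These are the types where Slco1c1 is high and the only contrasts of tanycytes in which it passed the filter, so the direction was fixed by the filter and no p is given. The 380 microglia gave 0 UMIs. Of the endothelial cells 48.9% ± 4.63 held a UMI, against 4.65% ± 0.40 of astrocytes, 0.93% ± 0.40 of tanycytes and 0 of 380 microglia, which allows a share of up to 0.789% (3 cells; SD, n = 4). Thinned to 500 UMIs per cell, the shares were 25.0% ± 1.93, 2.57% ± 0.43 and 0.49% ± 0.22 in endothelial cells, astrocytes and tanycytes.

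Slco1a4, a second organic anion transporter of the endothelium, stood at 1324 CPM ± 111 in endothelial cells and at 6.72 ± 1.48 in astrocytes and 6.63 ± 1.18 in tanycytes (SD, n = 4). Pooled over mice, astrocytes held 9.01% of the endothelial level of Slco1c1 but 0.52% of that of Slco1a4, and between 0.39% and 1.03% of those of the endothelial markers Cldn5, Flt1, Pecam1, Ly6c1 and Itm2a. In tanycytes the figure was 1.24% for Slco1c1, 0.53% for Slco1a4 and 0.35% to 4.55% for those markers. Slc7a5, an amino acid transporter, held 8.97% of its endothelial level in astrocytes, 6.30% in OPC and 2.41% in tanycytes. Whether endothelial RNA adds to these values was not tested. The ratio of Slco1c1 to Slco1a4 UMIs was 0.47 in endothelial cells, 8.19 in astrocytes, 1.10 in tanycytes and 0.93 in oligodendrocytes. Of the 1266 cells labelled endothelial, 346 held UMIs of at least 2 mural markers, and the source of these UMIs was not tested. Without these cells, and without 119 other cells with 2 endothelial markers, the endothelial level of Slco1c1 was 675 CPM, and the median depth of endothelial cells was 904 to 1017 UMIs per mouse, against 949 to 1192 with them.

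**Figure D3:**
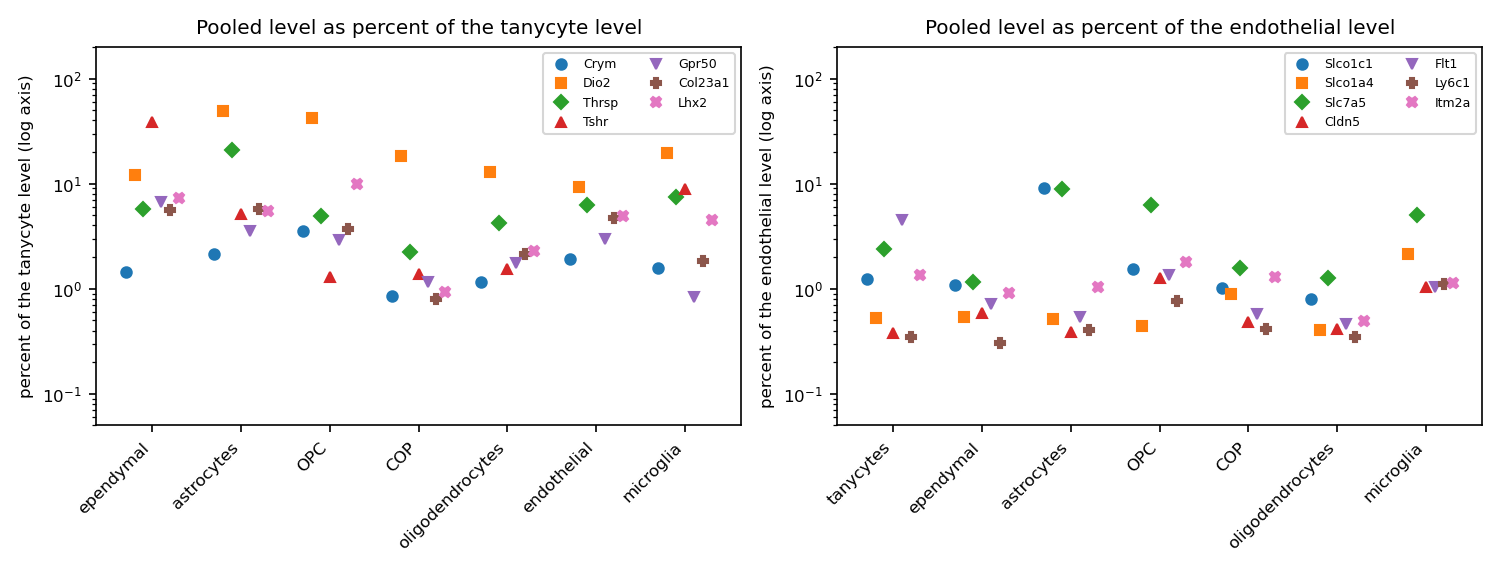
Pooled level of each gene in a cell type as a percent of its level in tanycytes (left) or in endothelial cells (right), on log axes; values of 0 are not drawn. Dio2 in astrocytes stands at 49.0% of its tanycyte level where Crym stands at 2.12%, and Slco1c1 in astrocytes stands at 9.01% of its endothelial level where Slco1a4 stands at 0.52%.

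The other transporters, 6 genes chosen as known carriers of thyroid hormone or partners of such carriers, had, where detected, their highest mean among the compared types in endothelial cells or microglia. Slc7a5 and Slc3a2, the light and heavy chains of a large neutral amino acid transporter, stood at 681 CPM ± 222 and 262 ± 28.4 in endothelial cells and at 16.2 ± 6.65 and 82.8 ± 7.23 in tanycytes. Both were called lower in tanycytes than in endothelial cells (log2 differences of -5.41 and -1.65) and than in astrocytes (-1.99 and -1.17). Slc7a5 was also called lower than in OPC (-1.09), and Slc3a2 lower than in microglia (-1.32). Slco2b1 and Slc7a8 had their highest levels in microglia, at 249 CPM ± 125 and 126 ± 31.4, and neither exceeded 1.97 CPM on average in tanycytes. Slc16a10 was listed at 0 in every cell. Slco1a4, Slco2b1 and Slc7a8 passed the filter on low counts only in contrasts with endothelial cells or microglia, where they are high, so their direction there was fixed by the filter and no count over the tested transporters is given.

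Crym encodes mu-crystallin, which binds T3 in the cytosol. It was found at 688, 593, 881 and 495 CPM in the tanycytes of mice 3, 4, 30 and 34, a mean of 664 CPM ± 164 (SD, n = 4) from 3642 UMIs. No other type had a mean above 26.3 CPM, and the lowest tanycyte value lay far above the highest value elsewhere, 65.6 CPM in the OPC of mouse 4. Without the cells of high doublet score that OPC value was 9.7 CPM and the OPC mean was 8.9 CPM, below that of astrocytes (13.3 CPM), and the log2 difference of tanycytes over OPC was 6.58. The log2 difference, tanycytes over the other type, was 5.08 ± 0.25 for OPC, 5.42 ± 0.15 for astrocytes, 5.65 ± 0.17 for endothelial cells, 5.85 ± 0.36 for microglia, 6.11 ± 0.16 for oligodendrocytes, 6.18 ± 0.17 for ependymal cells and 7.01 ± 0.21 for COP. Tanycytes were higher in 4 of 4 mice in each. Among the fitted pairs of other types 1 passed the filter for Crym: astrocytes exceeded oligodendrocytes by 0.72 ± 0.29 (edgeR adjusted p = 0.029). This did not pass without the mouse block (edgeR adjusted p = 0.43), nor without mouse 3, 4 or 34 (0.0517, 0.0662 and 0.159). Crym entered this pair through astrocytes, where it is higher, so the filter could fix the direction and these p-values are a description only.

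A Crym UMI was found in 39.4% ± 4.59 of tanycytes, and 879 of the 1771 cells with a UMI held 2 or more, up to 19. In the other compared types the share ran from 0.97% ± 0.81 in COP to 1.58% ± 1.10 in astrocytes. Thinned to 500 UMIs per cell, the share was 22.6% ± 5.17 in tanycytes and 0.76% ± 0.44 in astrocytes. Pooled over mice, the level of Crym outside tanycytes came to between 0.85% (COP) and 3.51% (OPC) of the tanycyte level in the compared types. Of the 5 tanycyte markers, Gpr50 gave at most 6.65% in the same types, Col23a1 5.70% and Lhx2 9.99%, whereas Rax reached 19.0% in astrocytes and Scn7a 421% in ependymal cells. Thrsp reached 20.8% in astrocytes and Tshr 38.6% in ependymal cells, and Dio2 stood at 49.0% in astrocytes and 42.6% in OPC. The highest Crym value was that of mouse 30 in tanycytes and, at 28.8, 40.0, 21.1 and 19.0 CPM, in oligodendrocytes, astrocytes, ependymal cells and endothelial cells, whereas it was that of mouse 4 in OPC and COP (65.6 and 13.6 CPM) and of mouse 3 in microglia (22.5 CPM).

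Of the plasma binding proteins, Ttr (transthyretin), which the choroid plexus is known to secrete, was the 1 listed gene of 3. It read 281, 4.5, 37.9 and 15.7 CPM in tanycytes, so that mouse 3 alone set its mean of 84.7 CPM ± 131 (SD, n = 4), and it was called in none of the 5 contrasts that tested it. The 3 choroid plexus markers Kl, Folr1 and Kcnj13 summed to between 0.56 and 3.44 CPM in the tanycyte sums. Alb and Serpina7 were not among the listed genes.

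Thra, the gene of thyroid hormone receptor alpha, was detected in every cell type, with its highest level in COP, the stage between OPC and myelinating oligodendrocytes. COP held 825, 886, 809 and 898 CPM (855 ± 44.4; SD, n = 4). All 4 values lay above the highest value of any other type, 378 CPM in ependymal cells. Oligodendrocytes followed with 338, 319, 307 and 314 CPM (319 ± 13.7), and OPC held 274, 221, 225 and 262 CPM (245 ± 26.2). Along the lineage the log2 difference, OPC over COP, was -1.81 ± 0.10 (edgeR adjusted p = 3.8e-30, where 46.6% of all genes passed by the adjusted p alone), and COP over oligodendrocytes 1.14 ± 0.09 (edgeR adjusted p = 1.7e-27, where 55.4% passed). The level was thus higher in the middle stage than in both its neighbours, in 4 of 4 mice.

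In tanycytes Thra stood at 284, 347, 270 and 286 CPM (297 ± 34.3), inside the range of ependymal cells, at 249, 378, 245 and 345 CPM (304 ± 67.7). The log2 difference between these neighbours was 0.06 ± 0.10 (edgeR adjusted p = 0.66, where 46.7% of all genes passed by the adjusted p alone), and without mouse 3 it was -0.014. Tanycytes were lower than COP by -1.37 ± 0.08 and higher than microglia by 1.12 ± 0.23, the 2 calls for this gene. Other differences passed the adjusted p but not the fold limit, namely -0.34 ± 0.08 from oligodendrocytes, 0.26 ± 0.08 from astrocytes, 0.50 ± 0.10 from OPC and 0.61 ± 0.11 from endothelial cells. That from astrocytes did not pass without the mouse block (edgeR adjusted p = 0.0705), nor without mouse 3 or 34 (0.114 and 0.0672). It did not pass with DESeq2 (DESeq2 adjusted p = 0.0700), nor with sums thinned to equal totals (edgeR adjusted p = 0.0771). With such thinning the difference from oligodendrocytes was -0.21 and did not pass either (edgeR adjusted p = 0.0885).

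Below tanycytes the neighbours in the order of Thra levels were hard to separate. Astrocytes (247 CPM ± 24.3) and OPC (245 ± 26.2) differed by 0.23 ± 0.11 on the log2 scale (edgeR adjusted p = 0.079), and without mouse 3 by 0.36 (edgeR adjusted p = 0.0272). OPC and endothelial cells (190 CPM ± 31.2) differed by 0.18 ± 0.13 (edgeR adjusted p = 0.25, where 56.7% of all genes passed). Endothelial cells and microglia (118 CPM ± 27.5) differed by 0.50 ± 0.25 (edgeR adjusted p = 0.11, where 46.8% passed), and without the filter on low counts by 0.79 (edgeR adjusted p = 0.0194). Ependymal cells stood below oligodendrocytes by -0.34 ± 0.11 (edgeR adjusted p = 0.0055, where 64.8% passed), although their CPM ranges overlapped and without mouse 3 the edgeR adjusted p was 0.174. The pooled vascular leptomeningeal cells gave 13 UMIs, 105 CPM with an exact Poisson interval of 55.7 to 179 (95%, counting error only).

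The share of cells with a Thra UMI was 73.7% ± 12.4 in COP, 30.8% ± 3.86 in oligodendrocytes, 29.5% ± 3.86 in tanycytes and 12.2% ± 3.47 in microglia. COP were also the deepest cells, with a median of 1771 UMIs against 1136 in oligodendrocytes and 1020 in OPC. After thinning to 500 UMIs per cell the share was 34.6% ± 1.19 in COP, 14.9% ± 0.49 in oligodendrocytes, 10.4% ± 2.60 in OPC and 14.1% ± 2.06 in tanycytes, which kept COP highest. The counts join all transcripts of Thra, including the form that does not bind hormone. The 3' end of Thra overlaps that of Nr1d1 (chromosome 11, 98767932 to 98775377), a clock gene on the other strand, and the use of strand in counting was not given, so reads in the overlap cannot be assigned with certainty. Nr1d1 did not share the peak in COP, where it stood at 43.8 CPM ± 5.20 against 153 ± 42.2 in ependymal cells and 147 ± 19.3 in endothelial cells.

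Thrb, the gene of thyroid hormone receptor beta, was detected at low counts, highest in astrocytes at 24.03, 29.6, 34.0 and 28.5 CPM (29.0 ± 4.10, 150 UMIs). OPC held 30.7, 20.5, 21.2 and 25.2 CPM (24.4 ± 4.66, 35 UMIs) and overlapped astrocytes. Tanycytes came next at 14.3, 19.3, 20.01 and 14.0 CPM (16.9 ± 3.20, 90 UMIs), below every astrocyte and OPC value. The log2 difference, tanycytes over astrocytes, was -0.83 ± 0.20 (edgeR adjusted p = 0.00032). Over OPC it was -0.39 ± 0.31 (edgeR adjusted p = 0.30, where 49.9% of all genes passed by the adjusted p alone), so these neighbours were not separated by the test, nor were astrocytes and OPC (0.42 ± 0.28, edgeR adjusted p = 0.22).

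Ependymal cells held 4.9, 5.8, 21.1 and 6.0 CPM of Thrb, with mouse 30 far above the others. Tanycytes exceeded them by 0.97 ± 0.36 (edgeR adjusted p = 0.022), and without mouse 30 by 1.52. The edgeR adjusted p was 0.053 without the mouse block, and 0.107, 0.0873 and 0.113 without mouse 3, 4 and 34. Tanycytes were called higher than oligodendrocytes (6.0 CPM ± 0.61) by 1.203 ± 0.29 and than endothelial cells (2.5 ± 3.89) by 2.11 ± 0.54. Against ependymal cells, oligodendrocytes and endothelial cells, Thrb passed the filter through tanycytes, where it is higher. The filter could thus fix these directions, and the calls and p-values are a description only. COP, endothelial cells and microglia gave 4, 6 and 1 UMIs. COP, the type with the highest level of Thra, thus gave Thrb at 3.10 CPM ± 2.87, and astrocytes, the highest for Thrb, ranked 5 of the 8 compared types for Thra. Of tanycytes 2.04% ± 0.28 held a Thrb UMI, of astrocytes 2.82% ± 0.56 and of microglia 0.20% ± 0.39 (median depths of 1143, 851 and 939 UMIs), and after thinning to 500 UMIs the first 2 shares were 0.83% ± 0.18 and 1.25% ± 0.23.

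The remaining genes of the pathway were described from 6 lists with 36 genes in all, of which 33 were listed. Over these, tanycytes were called higher for 3 and lower for 1 of 19 tested against ependymal cells (21.1%, beside 19.8% of all genes), 2 and 5 of 21 against astrocytes (33.3%, beside 21.1%), 3 and 1 of 20 against OPC (beside 26.0%), and 4 and 2 of 18 against COP (33.3%, beside 36.8%). They were called higher for 5 and lower for 1 of 22 against oligodendrocytes (27.3%, beside 33.1%), 2 and 4 of 21 against endothelial cells (28.6%, beside 32.3%), and 5 and 5 of 20 against microglia (beside 32.5%). The share was thus above that of all genes against astrocytes and microglia and near or below it against the others, and it includes genes that passed the filter only through the type where they are high. The median log2 difference of the lists lay between -0.24 (astrocytes) and 0.24 (ependymal cells), beside medians between -0.01 and 0.14 over all genes tested. Thrsp and Tshr account for 2 of the calls for higher levels in every contrast.

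**Figure D4:**
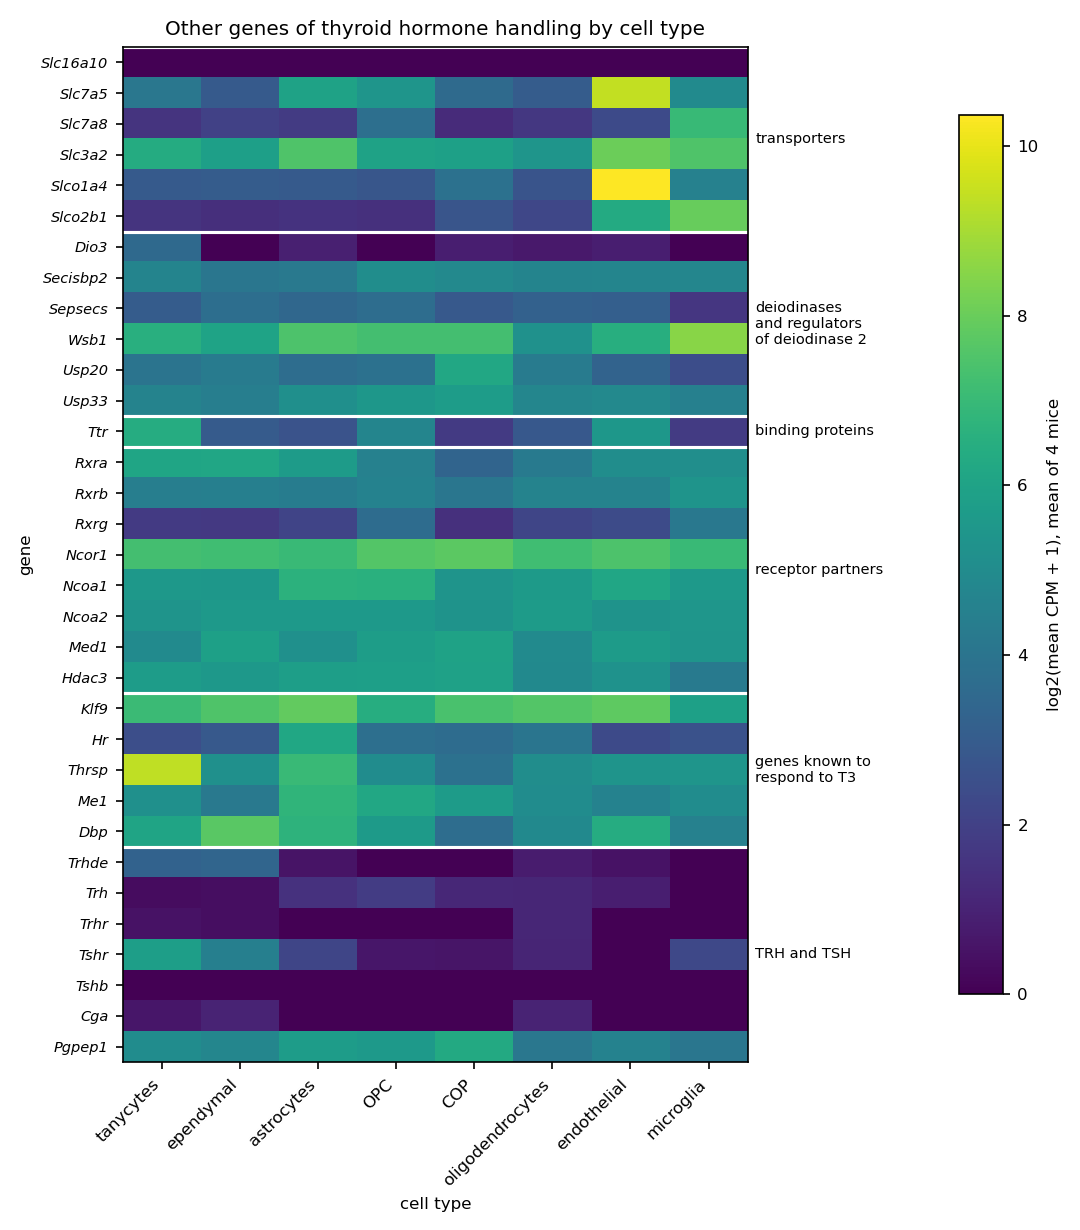
Mean level of the 33 other listed genes of thyroid hormone handling in 8 cell types, as log2(mean CPM + 1) over 4 mice, grouped by list. Thrsp and Tshr are brightest in tanycytes, Slco1a4 and Slc7a5 in endothelial cells, Hr in astrocytes, and Usp20 in COP. The scale compares a gene across columns and not 1 gene with another.

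Dio3, the deiodinase that inactivates both T4 and T3, gave 58 UMIs in tanycytes, at 13.8, 18.1, 6.3 and 4.5 CPM, and at most 4 UMIs in any other type, but it was too scarce to be tested. Among the genes known to act on the deiodinase 2 protein, Wsb1, a ubiquitin ligase adaptor, was called higher in tanycytes than in oligodendrocytes (log2 difference 1.204) and lower than in microglia (-2.14). Usp20, a deubiquitinase, stood at 72.7 CPM ± 12.7 in COP and 15.0 ± 3.27 in tanycytes, a call of -2.16. Secisbp2 and Sepsecs, which serve the synthesis of selenoproteins such as the deiodinases, and Usp33 were called in none of the contrasts that tested them.

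Of the 8 receptor partners, 7 were tested in each contrast. Against microglia 2 were called (28.6%, beside 32.5% of all genes), 1 was called against each of astrocytes, OPC, COP and oligodendrocytes (14.3%, beside 21.1% to 36.8%), and 0 against ependymal and endothelial cells (beside 19.8% and 32.3%). Rxra, a retinoid X receptor, stood at 67.8 CPM ± 13.5 in tanycytes and 69.2 ± 3.98 in ependymal cells, and was called higher in tanycytes than in COP (3.08), OPC (1.82), oligodendrocytes (1.68) and microglia (1.04). The coactivator gene Ncoa1 was called lower than in astrocytes (-1.16), and Rxrb lower than in microglia (-1.25). The corepressor Ncor1, the coactivator genes Ncoa2 and Med1, and the deacetylase gene Hdac3 were called in none, and Rxrg was too scarce to be tested.

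The genes known to respond to T3 did not share 1 pattern. Thrsp, a gene of lipid synthesis, stood at 701, 715, 570 and 670 CPM in tanycytes (664 ± 65.4) and at 149, 123, 110 and 143 CPM in astrocytes, the next type, and was called higher in tanycytes in all 7 contrasts, with log2 differences from 2.29 (astrocytes) to 5.65 (COP). Hr, a corepressor gene, went the other way: astrocytes held 71.8 CPM ± 20.6 and tanycytes 4.67 ± 2.27, a log2 difference of -3.87, and oligodendrocytes held 15.3 ± 9.15 CPM, a difference of -1.73. Hr passed the filter only in these 2 contrasts of tanycytes, through the type where it is higher, so the filter fixed both directions. Me1, a source of NADPH, was lower than in astrocytes by -1.60 but higher than in ependymal cells by 1.13. Dbp, also a clock gene, was lower than in ependymal cells by -1.53 and higher than in COP, microglia and oligodendrocytes by 2.74, 1.70 and 1.13. Klf9, a transcription factor gene detected in all types, was called against microglia alone (1.08).

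Tshr, the receptor for thyrotropin, stood at 61.9, 53.3, 52.7 and 55.5 CPM in tanycytes (55.8 ± 4.23). Ependymal cells held 21.5 CPM ± 5.31, the next level. The log2 difference between these types was 1.43, a call for tanycytes. Endothelial cells gave 0 UMIs and the other types 3.75 CPM or less on average, so in the other 6 contrasts Tshr passed the filter through tanycytes, which fixed the direction of its calls there. Trhde, the ectoenzyme that degrades thyrotropin-releasing hormone, gave 8.55 CPM ± 3.32 in tanycytes and 9.57 ± 4.29 in ependymal cells from 43 and 21 UMIs, and at most 0.72 CPM on average in any other compared type. Tshb, the thyrotropin subunit of the pars tuberalis, was listed at 0 in every cell and Cga gave 2 UMIs in tanycytes. Pgpep1, a peptidase gene, was called lower in tanycytes than in COP (-1.12), and Trh and Trhr gave 2 UMIs each in tanycytes.

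Within tanycytes the cells could be split by the clusters that the authors deposited, of which cluster 1 held 2758 tanycytes and cluster 2 held 1731 of the 4490. This split was added after the data were seen, and since the clusters rest on the same counts, the values are given without a test. Crym stood at 411, 405, 741 and 366 CPM in cluster 1 and at 964, 785, 1203 and 617 CPM in cluster 2, in the order of mice 3, 4, 30 and 34. Dio2 stood at 9.8, 11.2, 34.7 and 23.1 CPM in cluster 1 and at 24.6, 32.1, 45.6 and 38.0 CPM in cluster 2. Both genes were higher in cluster 2 in 4 of 4 mice, with ratios of the means of 1.86 and 1.78, although the mice overlapped between clusters. Of the 5 tanycyte markers, Col23a1, Rax and Lhx2 were also higher in cluster 2 in 4 of 4 mice, with ratios of 1.53, 1.33 and 1.24, Gpr50 in 3 of 4 (1.16) and Scn7a in 2 of 4 (0.86). In every mouse cluster 1 had fewer UMIs per cell (medians of 827 to 1078.5 against 1253.5 to 1383), a higher mitochondrial percent (12.2 to 13.5 against 11.1 to 12.2) and a higher doublet score (0.0599 to 0.0758 against 0.0435 to 0.0566), and the part of these in the differences was not tested. Thrsp was likewise higher in cluster 2 in every mouse (478 CPM ± 13.7 and 877 ± 76.2).

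The other genes of this group did not divide in the same way. Thra read 305 CPM ± 32.3 in cluster 1 and 288 ± 42.4 in cluster 2, and Thrb 16.6 ± 5.49 and 18.8 ± 8.56. Slco1c1, with 31 and 12 UMIs, stood at 10.2 CPM ± 5.29 and 4.92 ± 2.08, lower in cluster 2 in 3 of 4 mice. Dio3 gave 50 of its 58 UMIs in cluster 1, of which mice 3 and 4 held 27 and 15, and it was higher there in 3 of 4 mice, mouse 34 reading 3.47 CPM in cluster 1 and 5.43 in cluster 2. Of the markers listed for alpha tanycytes, Cd59a and Slc17a8 were higher in cluster 1 in every mouse, while Vcan was higher in cluster 2 in 3 of 4. Of the 4 genes of the beta tanycyte list, Col25a1 was higher in cluster 2 in 3 of 4 mice and Fgf10 and Scn7a in 2 of 4, while Adm gave 1 and 5 UMIs, so the clusters are called here by number only.

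**Figure D5:**
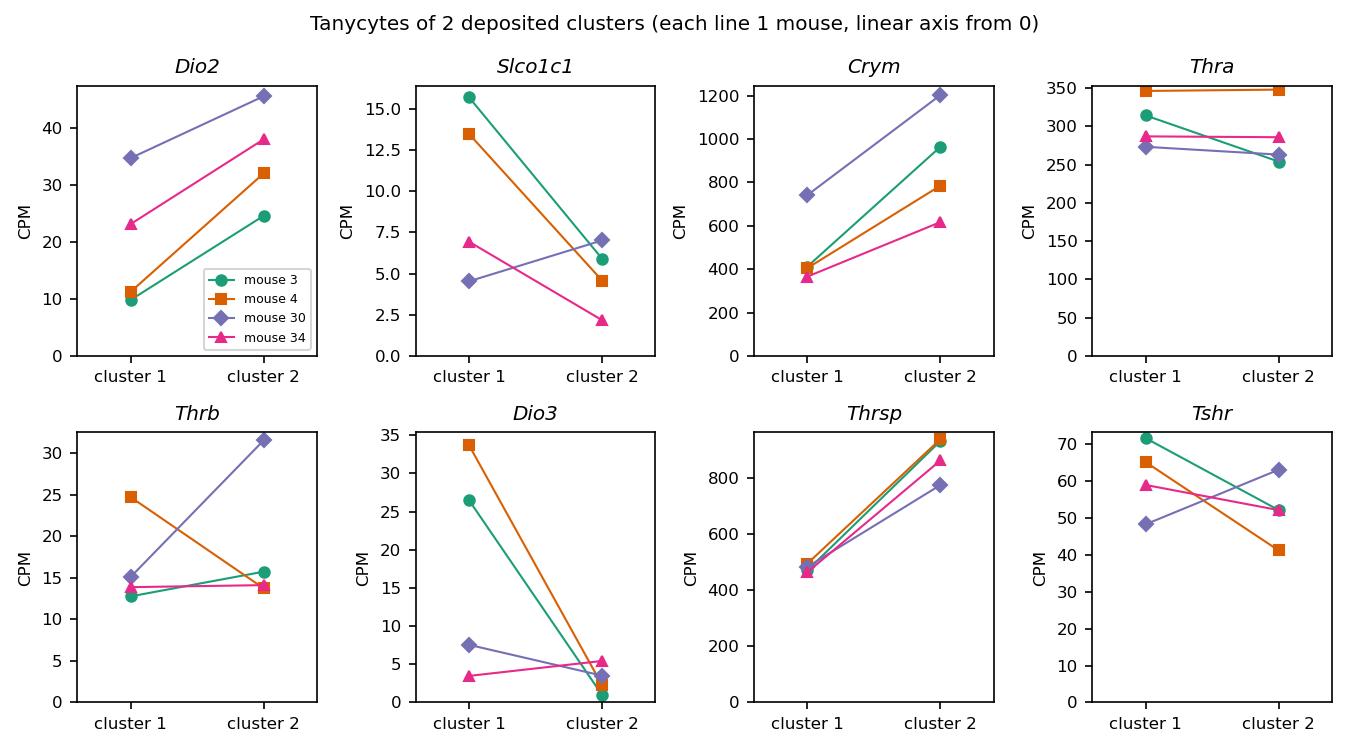
Level of the 5 genes and of Dio3, Thrsp and Tshr in the tanycytes of the deposited clusters 1 and 2, in CPM on linear axes that start at 0. Each line joins the values of 1 mouse. Dio2, Crym and Thrsp are higher in cluster 2 in all 4 mice, and Thra has means of 305 and 288 CPM.

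A second split took the 466 tanycytes with a UMI of the beta list and none of the alpha list, and the 668 with the reverse, leaving out 3278 with neither and 78 with both. Such classes are ranges cut from a few UMIs and not cell types. In this contrast 0.475% of the 2734 genes tested were called, and neither of the 2 genes of this group that passed the filter was among them. Crym differed by -0.12 ± 0.10 on the log2 scale (edgeR adjusted p = 0.75), beta over alpha, and Thra by -0.12 ± 0.15 (edgeR adjusted p = 0.84). Dio2 read 17.5, 43.5, 73.7 and 58.5 CPM in the beta class and 12.9, 27.5, 33.2 and 31.2 CPM in the alpha class, from 31 and 22 UMIs, and was too scarce to be tested.

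The genes most like each of the 5 across the 9 cell types were found by Pearson's r of log2(CPM + 1), averaged over mice, among the 6921 genes that reached 50 CPM in some type. The points come from the same 4 libraries and differ in depth, and that of vascular leptomeningeal cells comes from mouse 30 alone, where Dio2 was at 0, so r is a description. Over the other 8 types, a choice made after seeing the data, the 5 highest still held 2 of the genes named for Dio2, 1 for Slco1c1, 3 for Crym, 2 for Thra and 2 for Thrb, and r for all 25 named genes lay between 0.83 and 0.99. For Crym the 5 highest were Ndufc2 (0.95), Lhx2 (0.94), Col23a1 (0.92), Cirbp (0.90) and 6330403K07Rik (0.89), of which Lhx2, a homeobox gene, and Col23a1, a collagen gene, were also on the list of tanycyte markers. For Dio2 they were Ube2e1 (0.93), Tspan7 (0.92), Spon1 (0.91), Cbr1 (0.89) and Cdh2 (0.89). Slco1c1 was closest to Palm (0.97), Bmpr2 (0.94), Ccdc141 (0.93), Ctla2a (0.92) and Trip12 (0.92).

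For Thra the closest were Usp20 (0.98), Chmp1a (0.96), 4833439L19Rik (0.96), Pus7 (0.96) and Gng4 (0.95), all with their highest mean in COP, where Usp20 held 72.7 CPM. Usp20 is also one of the genes listed above for acting on deiodinase 2. For Thrb they were Epdr1 (0.97), Ddt (0.94), 2010107E04Rik (0.92), Tmem246 (0.92) and Gas1 (0.90). Several of these genes vary little between types, such as Trip12, with means between 64.6 and 80.9 CPM, and r takes no account of the size of the differences.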

How the data were processed

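Single-cell libraries of the hypothalamus of R50E-treated ob/ob mice were analysed. The submitters' processing notes name Cell Ranger 1.2, Seurat and the builds GRCm38, mm10 and GRCh38 without roles. The authors deposited raw UMI counts for 70323 cells, a cell type and cluster for each, a mitochondrial percent, and a doublet score given as a fraction. Only the 20151 cells of the 4 labelled mice with cells were used, and 12 libraries of other groups (50172 cells) were not. The cells held at least 487 UMIs and at most 19.98% mitochondrial UMIs. The sources used here do not give how the types were made, nor whether counting used strand. Doublets were not removed, and leaving out the 10% of highest score in each mouse was an alternative.

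Counts were summed per mouse and type where at least 20 cells were present. CPM, SD over mice and shares of cells (unthinned, and with each cell thinned to 500 or 1000 UMIs, the former leaving out 1 OPC) were computed in Python 3.11.15. Pairs of types were tested in R 4.3.3 with edgeR 4.0.16 (quasi-likelihood F test, TMM, filterByExpr, mouse as block), with DESeq2 1.42.0 as an alternative, after a test on simulated data. SEs were derived from the F statistic. The block is the mouse from which both sums come, and the deviations of a mouse from the type means correlated between types with r from 0.234 to 0.771 (568 genes, 112 values). Each mouse is a separate animal. Intervals and limits for a count of 0 cover counting error only. Promoter windows and gene positions come from RefSeq (GRCm38.p6) and matched by symbol, 3 of the 5 genes having a promoter there. Named genes were the 5 genes, the pathway lists and, for each of the 5, the 5 genes most correlated with it. Some genes of the pathway lists are not reported here. The genes and lists were chosen with earlier results of these data known.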

Additional observations from a re-analysis of the deposited data

Results flagged for a closer look

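Within a cell type, the level of each of the 5 genes was screened for 1 mouse far from the other 3, by the gap to the nearest mouse over the whole range, and 3 of 39 values stood apart. The cutoff flags by chance about 1 in 20 groups (5%) of values that are normally distributed. Sparse counts are not, and a single UMI in 1 mouse against 0 in the others is always flagged, so this rate may not hold here. Crym in OPC was 65.6 CPM in mouse 4, the other mice ranging from 9.2 to 17.5 CPM, and rests on 16 UMIs in 7 of 242 cells, with up to 5 in 1 cell. Without the cells of high doublet score it was 9.7 CPM, from 2 UMIs. Thrb in ependymal cells was 21.1 CPM in mouse 30, the other mice ranging from 4.9 to 6.0 CPM, and rests on 10 cells with 1 UMI each. Thrb in microglia was 7.5 CPM in mouse 3 against 0 in the others, and this is a single UMI.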

How the results depend on the processing

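Of 294 alternative values for the fold changes of the 5 genes between tanycytes and another type, 282 kept their direction and their side of the threshold. The Dio2 call against microglia was lost with DESeq2 (log2 difference 2.24), without the replicate block (2.16) and without cells of high doublet score (1.96), and lay between 1.61 and 2.62 with 1 mouse left out. Dio2 against astrocytes was called without the block (1.03) and without mouse 3 (1.30), and ranged from 0.66 to 1.30 with 1 mouse left out. Thrb against ependymal cells was called without cells of high doublet score (1.34), without cells with endothelial or mural markers (1.05) and without mouse 30 (1.52). With 1 mouse left out it ranged from 0.80 to 1.52. Thra against ependymal cells ranged from -0.014 to 0.16. The mouse block changed no other call. By the adjusted p alone, 30 of 408 values changed side, for Dio2, Crym (astrocytes against oligodendrocytes), Thra and Thrb; for Thra, tanycytes against astrocytes, the adjusted p was at most 0.114. Thinning the sums to equal totals lowered the numbers of genes called to 1112 (ependymal cells), 1382 (astrocytes), 1041 (OPC), 1367 (COP), 2009 (oligodendrocytes), 1268 (endothelial cells) and 234 (microglia), and without a filter they were 3399 (OPC), 4380 (COP) and 21 (beta against alpha tanycytes). The last count ranged from 10 to 20 with 1 mouse left out and was highest without mouse 3. Of 280 alternative levels 3 moved by more than the SD. The levels without cells with endothelial or mural markers, and the split of tanycytes by deposited clusters, were added after seeing the data. Dio2, Thrb and, outside endothelial cells and astrocytes, Slco1c1 rest on few UMIs.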
